A study of Mus musculus with 22 samples.

Results

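Cell-cycle entry of resting mouse fibroblasts was compared between 2 stimuli at 6 h. In the first, the transcription factor E2F1 was switched on from a doxycycline-inducible construct. In the second, cells without that construct received fresh serum. The comparison used 8 of the 22 libraries of the series, in 4 groups of 2 replicates, and every one of the 11208 genes in the deposited table. All cells were NIH/3T3, an established mouse fibroblast line, with a stably integrated construct that either encoded E2F1 (E2F1 line) or was an empty vector (EV line). All were first starved for 48 h in medium with 0.25% serum. The 4 groups were the E2F1 line at 0 h and after 6 h with 500 ng/ml doxycycline, and the EV line at 0 h and after 6 h with 10% serum. A further 2 libraries, the EV line after 6 h with doxycycline, showed what the drug did without E2F1. For each gene the E2F1 change is 6 h minus 0 h in the E2F1 line, the serum change is 6 h minus 0 h in the EV line, and the difference is the E2F1 change minus the serum change, all on the scale of log2(normalized count + 1). The stimuli were given to different lines, and only the E2F1 line received doxycycline, so stimulus, line and drug cannot be told apart in the difference. Where the EV doxycycline libraries serve as a baseline below, they replace 0 h in the serum change only. The E2F1 change keeps its own 0 h baseline, so that setting does not take the drug out of the difference. Neither the number of clones behind each line nor whether replicates were separate cultures is stated, so p-values measure only the spread between these libraries, which may be technical.

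E2F1 is a sequence-specific activator that is held inactive in resting cells by the retinoblastoma protein and its relatives, the pocket proteins. When mitogens act, growth factor receptors signal through the ERK kinases to immediate early genes such as Fos, Egr1 and Myc, cyclin D is made, and cyclin-dependent kinases (CDKs) phosphorylate the pocket proteins. Freed E2F factors then turn on cyclin E and the genes for origin licensing, DNA synthesis and nucleotide supply. Serum also acts outside the cell cycle machinery. It drives serum response factor (SRF) and YAP through the actin cytoskeleton, raises ribosome production, and silences FOXO target genes that mark starvation. Forced E2F1 enters this chain at its last step, and it is known to activate death genes as well.

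Deposited totals ran from 34043429 to 41407438 normalized counts in the 8 libraries, with medians per gene from 1250 to 1434.5. No gene in the table averaged under 99.6 normalized counts across the 22 libraries, so rare transcripts were outside it. Replicates differed by a median of 0.116 to 0.160 in log2. All 10 fibroblast markers sought were in the table, while 0 of 5 epithelial, 0 of 4 haematopoietic, 0 of 3 endothelial and 0 of 3 muscle markers were, and of 3 neuronal markers 1 was (Map2, 210 to 690 normalized counts). The table leaves out rare transcripts, so a missing row does not show that a transcript was absent: the authors' deposited serum table lists Krt8 and Cdh5 as higher and Cdh1 as lower with serum. The lines differed before any stimulus: at 0 h, 993 genes were higher and 691 lower in the E2F1 line. The Y-linked gene Ddx3y had 580 and 521 normalized counts in the E2F1 line at 0 h and 415 and 435 at 6 h, against 9 and 4 in the EV line at 0 h and 48 and 35 after serum; the part of such line differences in the results below was not tested. Doxycycline alone moved few genes in the EV line at 6 h: limma called 15 genes (Benjamini-Hochberg adjusted p under 0.05, the rule for every call here), all higher, and 661 had an unadjusted p under 0.05. In bulk RNA, fewer cells of a kind and less RNA per cell cannot be told apart, which holds for every change below.

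The induced gene itself was measured first. E2f1 (ENSMUSG00000027490.17, chr2:154559407-154569892, minus strand, GRCm38) had 1703 and 1637 normalized counts in the E2F1 line at 0 h and 3806 and 3602 after 6 h of doxycycline. It had 1635 and 1655 in the EV line at 0 h, 1186 and 956 after serum, and 1426 and 1506 after doxycycline. Both induced libraries lay above all others, and both serum libraries lay below all others. E2f1 rose by 1.15 ± 0.11 (SE) on the log2 scale in the E2F1 line and fell by 0.63 ± 0.11 with serum. The row counts the mouse gene, and reads from a construct of another sequence need not be counted in it.

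Over all genes, most transcripts changed by different amounts with the stimuli. The difference passed the threshold (limma, Benjamini-Hochberg adjusted p under 0.05) in 6493 of 11208 genes, or 57.9%. Of these, 3397 (30.3%) were higher with E2F1 and 3096 (27.6%) were higher with serum. By at least 2-fold, 1685 genes (15.0%) were higher with E2F1 and 1182 (10.5%) with serum, and by at least 16-fold 37 and 30 were. E2F1 alone raised 3230 genes (28.8%) and lowered 2569 (22.9%), and serum raised 4093 (36.5%) and lowered 3470 (31.0%). These splits depend on the scaling. The E2F1 split was 2657 higher and 3820 lower after quantile normalization and 2683 and 3781 with equal totals, which moved the median E2F1 change of all genes from -0.03 to -0.14 and -0.15. With equal totals the serum split was 2914 higher and 4772 lower, at a median serum change of -0.18 instead of 0.03. The difference moved as well: its median was 0.04 as deposited, -0.03 after quantile normalization and 0.14 with equal totals. Its split was 3042 higher with E2F1 and 3252 with serum after quantile normalization, and 3863 and 2666 with equal totals. No gene called in the difference was called in the other direction under either scaling.

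The large changes with E2F1 were nearly all rises, while serum gave large changes in both directions. At 2-fold or more, E2F1 raised 968 genes and lowered 147, whereas serum raised 1197 and lowered 1311. By 2-fold, 158 genes rose with both, which is 16.3% of the E2F1 rises and 13.2% of the serum rises. Of all 11208 genes, 1197 rose 2-fold with serum and 968 with E2F1, so both shares lie above those of all genes. Of the 968 genes raised 2-fold by E2F1, 400 also rose with serum and 225 fell with it, and their median serum change was 0.18. Over all genes, 36.5% rose and 31.0% fell with serum. Of the 1311 genes lowered 2-fold by serum, 462 fell with E2F1, 58 of them by 2-fold, and 191 rose. Over all genes, 22.9% fell and 28.8% rose with E2F1. A higher level with E2F1 than with serum came about in several ways. Among the 1685 genes higher with E2F1 by 2-fold, 31.0% rose with E2F1 and fell with serum, 21.3% rose with E2F1 only, and 31.3% fell with serum while the E2F1 change was not called. Among the 1182 higher with serum, 50.3% rose with serum only and 38.0% rose with serum and fell with E2F1. Across all genes, Pearson's r between the changes was 0.197, given as a description because genes share libraries.

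**Figure D1:**
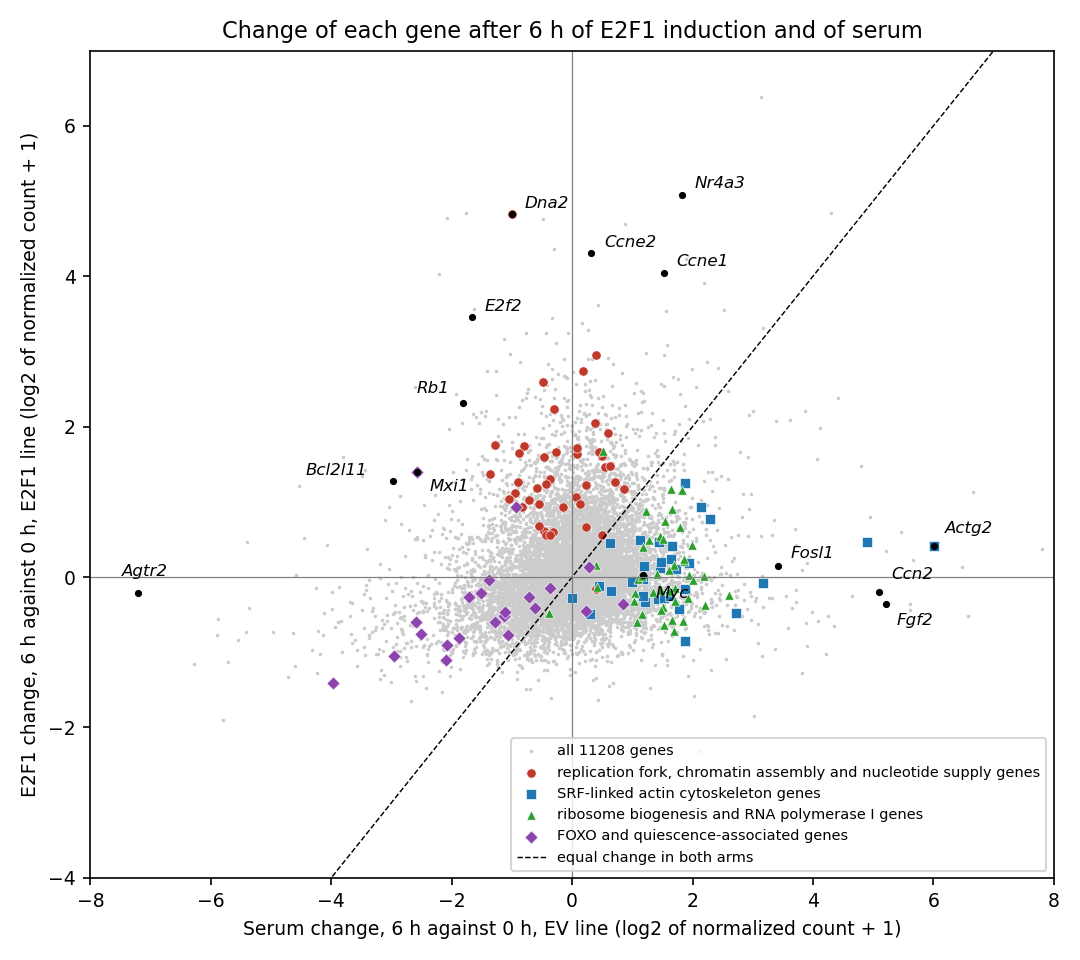
Log2 change of each of the 11208 genes after 6 h of serum (x axis, EV line) and of E2F1 induction (y axis, E2F1 line), with 4 gene lists in colour and selected genes named. Replication genes lie above 0 on the E2F1 axis and close to 0 or below it on the serum axis, while actin and ribosome biogenesis genes lie to the right at E2F1 changes near 0; r over all genes is 0.197.

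The 6 largest differences towards E2F1 held both genes that E2F1 raised and genes that serum lowered. Agtr2, the angiotensin II type 2 receptor (chrX:21484544-21489164), had 1921 and 1415 normalized counts in the E2F1 line at 0 h and 1221 and 1656 at 6 h. It had 1427 and 734 in the EV line at 0 h and 5 and 7 after serum. Its large difference of 6.99 ± 0.51 thus came from the serum arm, in which it fell by 7.21, while its E2F1 change of -0.21 was not called. Dna2, the nuclease and helicase that trims Okazaki fragments and resects DNA ends (chr10:62947026-62974185), showed the other form. It had 224 and 193 normalized counts in the E2F1 line at 0 h and 5898 and 5978 at 6 h, against 114 and 157 in the EV line at 0 h, 86 and 51 with serum, and 74 and 139 with doxycycline. Dna2 rose by 4.83 ± 0.32 with E2F1 and fell by 1.00 ± 0.32 with serum, a difference of 5.83 ± 0.45. Ptpru, a receptor tyrosine phosphatase, went from 18 and 15 to 541 and 417 with E2F1, and read 9 and 22 before and 0 and 12 after serum. Neurl1b, a ubiquitin ligase of the neuralized family, went from 10 and 18 to 472 and 362, and read 16 and 52 before and 5 and 12 after serum. Eepd1, an endonuclease linked to stalled replication forks, went from 38 and 36 to 705 and 545, and fell from 71 and 38 to 9 and 12 with serum. Nrep completed the 6 genes by the serum arm: it read 99 and 142 before and 7 and 0 after serum, and its E2F1 change of 0.46 was not called. Differences of genes at such low counts depend on the pseudocount, and the intervals of Ptpru (4.08 to 9.61) and Neurl1b (4.15 to 9.06) were wide.

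The opposite end of the ranking was made up of serum-induced genes whose E2F1 changes were not called. Rgs16, a brake on G protein signalling, rose from 26 and 40 to 2692 and 984 normalized counts with serum and read 96 and 82 before and 113 and 42 after E2F1. Actg2, the smooth muscle gamma actin, rose from 30 and 18 to 1788 and 1380 with serum and read 145 and 124 before and 189 and 170 after E2F1. Fibcd1, a chitin-binding membrane receptor, went from 3 and 42 to 843 and 1617 with serum, and Anxa8, an annexin, from 9 and 7 to 348 and 547. The serum libraries of these 4 genes lay above every other group, and the differences of Rgs16 and Actg2 were -5.97 ± 0.73 and -5.60 ± 0.51. Tnnt2, cardiac troponin T, read 2 and 0 before and 291 and 516 after serum and 5 to 9 in the 4 libraries of the E2F1 line. Its fitted difference of -7.44 rests on those near-zero libraries and is not a measure of the fold.

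Genes that regulate E2F and cyclin E activity were mostly higher with E2F1. Of 20 measured members, 15 were higher with E2F1 and 2 with serum, the median difference was 1.70 beside 0.04 over all genes, and the median changes were 1.48 with E2F1 and 0.08 with serum. The serum median changed sign with the setting, from -0.20 without replicate 1 of the EV line at 0 h to 0.34 with the EV doxycycline libraries as the baseline, and was -0.14 with equal totals and -0.02 without replicate 2 with serum. E2f2, an activator of the same family, went from 83 and 109 normalized counts to 1068 and 1037 with E2F1 and from 54 and 85 to 25 and 17 with serum. The induced libraries stood above all others, and the difference was 5.12 ± 0.65. E2f7 and E2f8, the repressive members that later shut the programme down, rose by 3.62 and 2.55 with E2F1 and had serum changes of 0.43 and -0.41 that were not called. E2f3 went the other way: it rose with both, by 0.81 with E2F1 and 1.31 with serum, and was higher with serum by 0.50 ± 0.16.

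Both cyclin E genes, whose products activate CDK2 at the start of S phase, rose steeply with E2F1. Ccne2 went from 546 and 361 to 9083 and 8538 normalized counts, and read 211 and 323 before and 369 and 289 after serum. Ccne1 went from 666 and 544 to 10461 and 9521 with E2F1 and from 281 and 445 to 1128 and 915 with serum. Serum therefore raised Ccne1, by 1.52 ± 0.22, while its Ccne2 change of 0.32 (95% interval -0.21 to 0.85) was not called. The differences were 2.53 ± 0.31 for Ccne1 and 3.99 ± 0.36 for Ccne2. Rb1, which encodes the retinoblastoma protein itself, moved in opposite directions. It rose from 514 and 478 to 2642 and 2296 with E2F1 and fell from 642 and 605 to 152 and 205 with serum, a difference of 4.12 ± 0.23. The groups did not overlap. Tfdp2, a DNA-binding partner of E2F, likewise rose by 1.51 and fell by 1.56, and the pocket protein gene Rbl2 fell with both, by 0.44 and 1.65.

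**Figure D2:**
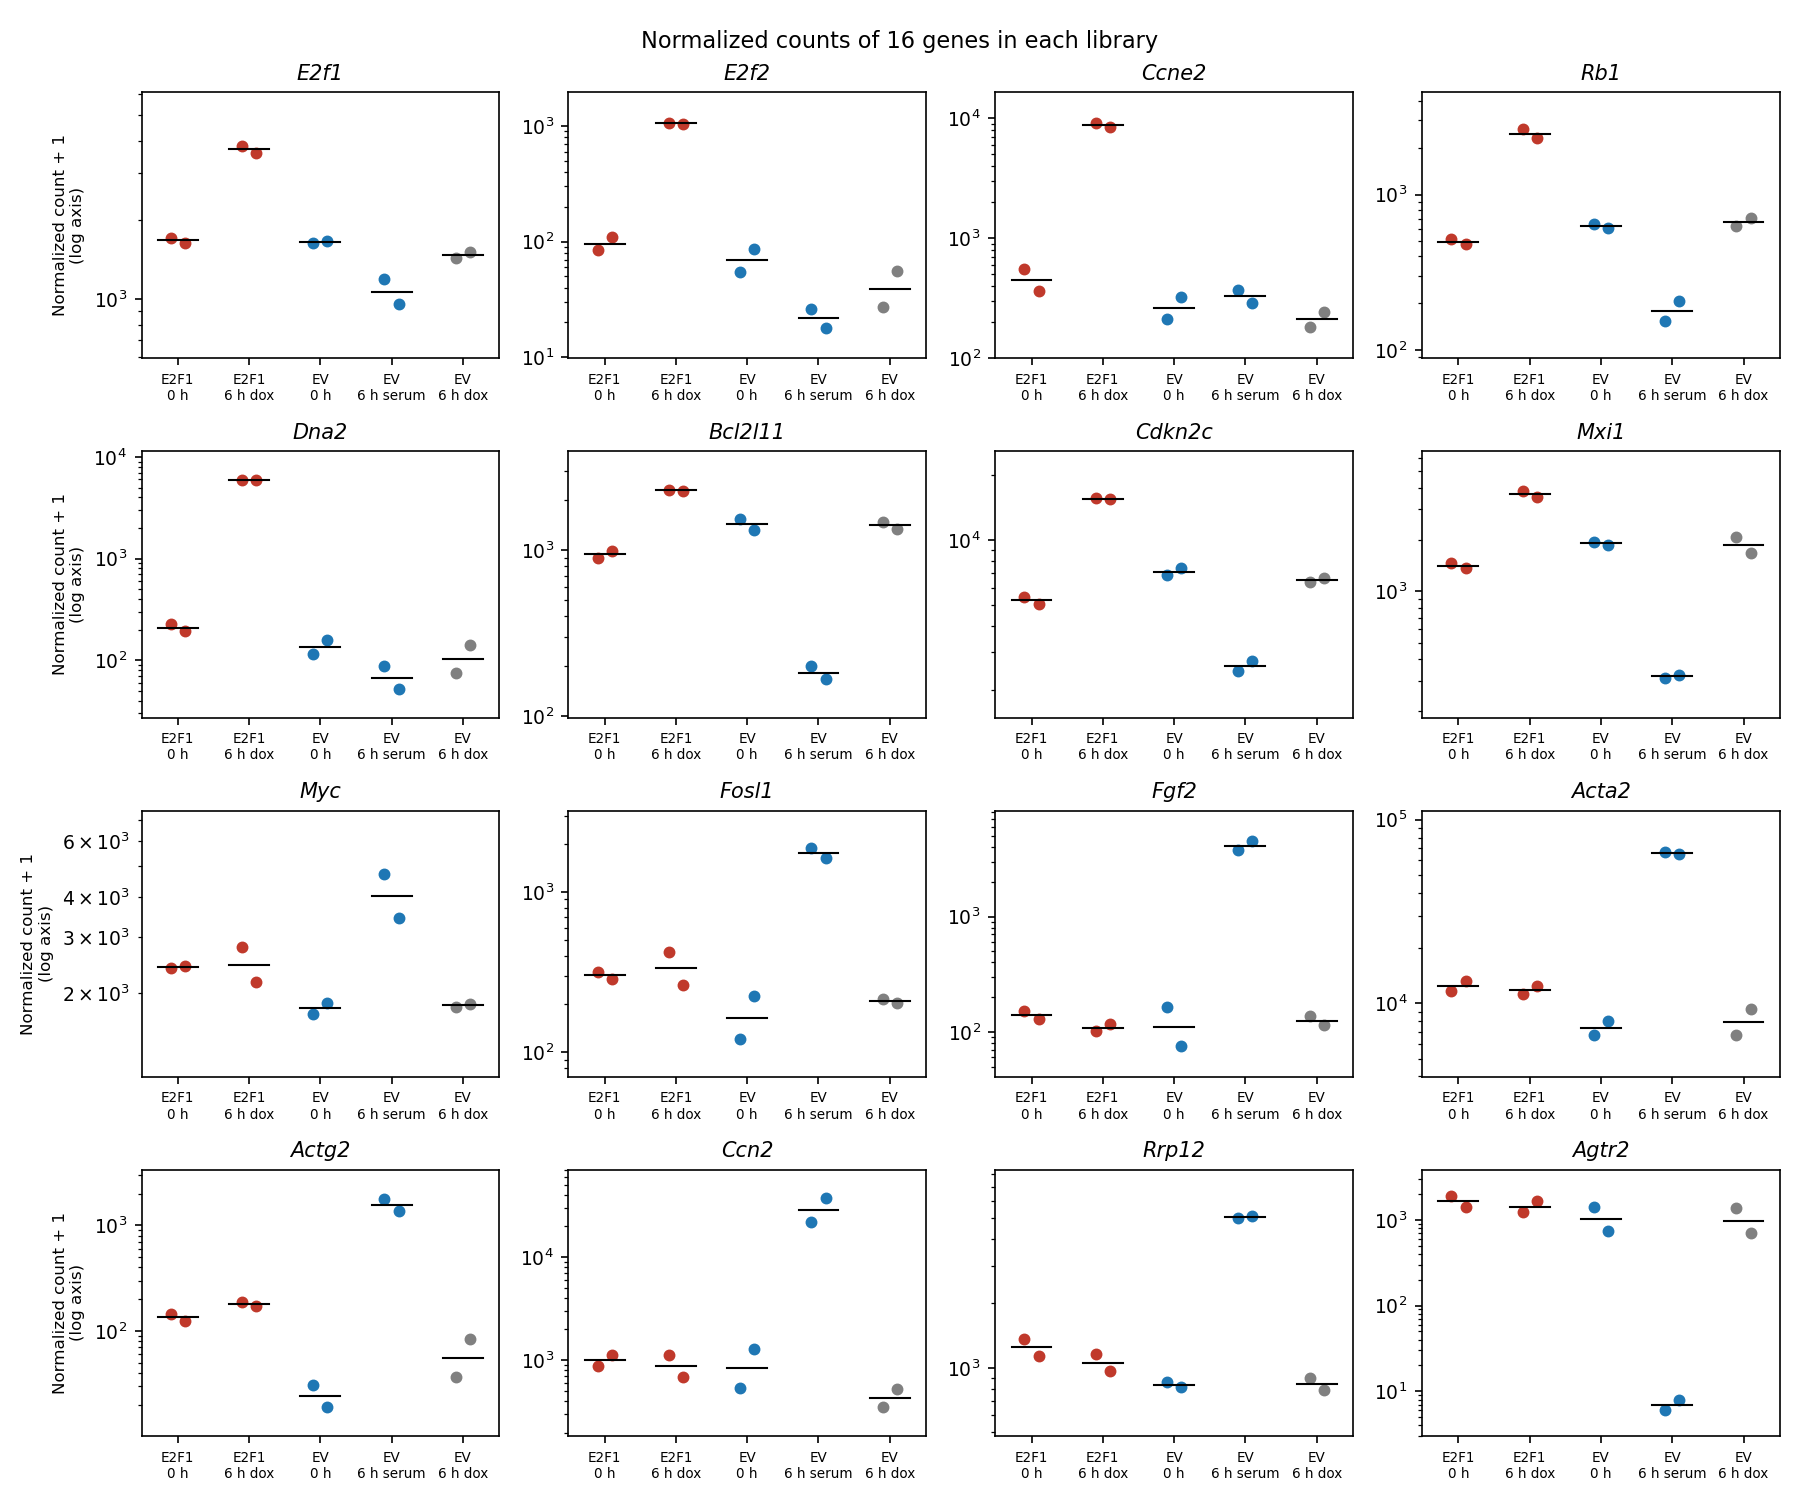
Normalized count + 1 (log axis) of 16 genes in each of 10 libraries: points are libraries, short lines the mean on the log scale, red the E2F1 line, blue the EV line at 0 h and with serum, grey the EV line with doxycycline. The 2 induced libraries stand above the rest for E2f2, Ccne2, Rb1 and Dna2 (5898 and 5978), and the 2 serum libraries stand above the rest for Fgf2, Acta2, Actg2, Ccn2 and Rrp12 and below the rest for Bcl2l11, Mxi1 and Agtr2 (5 and 7).

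Cyclin D, the step upstream of the pocket proteins, showed the reverse. Ccnd1 went from 1724 and 2535 to 6760 and 4971 normalized counts with serum, and read 2064 and 2124 before and 1549 and 1349 after E2F1, a difference of -2.01 ± 0.34. Ccnd2 rose by 1.23 with serum and had an E2F1 change of -0.02 that was not called. Ccnd3 behaved otherwise: it rose by 1.14 with E2F1 and had a serum change of -0.03. The kinase genes Cdk4 and Cdk6 differed by 0.20 and 0.24, and neither difference was called.

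Origin licensing genes load the replicative helicase onto DNA. Of 27 members, all measured, 20 were higher with E2F1 and 1 (Orc4) with serum. The median difference was 1.00, the median E2F1 change 1.07 and the median serum change 0.10. The EV line at 0 h decided the last: it was -0.21 without its replicate 1 and 0.43 without its replicate 2, which brought the median difference to 0.62, against 0.64 with the EV doxycycline libraries as the baseline. Mcm3, a helicase subunit, went from 3274 and 2985 to 9894 and 9676 normalized counts with E2F1, and read 1483 and 2453 before and 2713 and 2199 after serum. Cdc6, the helicase loader, went from 609 and 538 to 2358 and 2254 with E2F1 and from 226 and 351 to 527 and 526 with serum. Cdc6 rose with both, by 2.01 ± 0.21 and 0.90 ± 0.21, and its difference of 1.11 ± 0.30 (adjusted p = 0.00432) was not called when the EV doxycycline libraries served as the serum baseline (0.23). That setting leaves the E2F1 arm on its 0 h baseline, so it does not take the drug out of the difference. With doxycycline alone Cdc6 had 130 and 179 and Mcm3 1239 and 1561. At 0 h both were already higher in the E2F1 line, by 1.02 and 0.71, and the part of this in their differences was not tested. The largest differences were those of Gmnn, the inhibitor of relicensing (2.03), the kinase gene Cdc7 (1.83) and its activator gene Dbf4 (1.61). Not all members differed. Orc1 and Orc2, subunits of the origin recognition complex, rose with both stimuli, and their differences were -0.12 (95% interval -0.67 to 0.43) and 0.01 (-0.41 to 0.43).

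The promoters of this group often hold an E2F motif, and 3 are printed to show where it lies. The letters searched were TTTCCCGC, TTTGGCGC, TTTGCCGC and TTTCGCGC, on both strands, from 250 bases before to 50 after the start in RefSeq promoters of GRCm38.p6. A match was found in 10 of the 17 licensing genes with a single promoter in that table, or 58.8%, against 4.82% of the 6851 measured genes with one. This was the highest share among the lists searched. It was 36.4% for E2F and cyclin E regulators, 21.9% for replication fork genes and 18.2% for repair genes. G2 and mitosis genes had 4.35%, ribosome biogenesis genes 11.4%, actin genes 4.55% and CDK inhibitors 0 of 3. Mcm3 and Cdc6 were the genes with a match among those the naming rule gave, and Orc1 was added after the matches were seen, as a member that did not differ between stimuli. Capitals mark the E2F match, read 5' to 3' on the gene's strand. The Mcm3 promoter (chr1:20820263-20820562, minus strand) holds 2 matches, after the start. The Cdc6 promoter (chr11:98907901-98908200, plus strand) holds 1 match 138 bases before the start, and the Orc1 promoter (chr4:108579204-108579503, plus strand) holds 1 that begins 27 bases before it.
Mcm3: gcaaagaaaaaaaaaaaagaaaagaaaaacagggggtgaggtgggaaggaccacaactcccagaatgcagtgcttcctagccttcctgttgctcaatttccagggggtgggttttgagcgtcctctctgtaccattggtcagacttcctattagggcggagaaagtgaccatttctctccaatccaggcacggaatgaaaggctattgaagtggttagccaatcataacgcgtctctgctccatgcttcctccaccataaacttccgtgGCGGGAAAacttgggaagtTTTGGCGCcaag
Cdc6: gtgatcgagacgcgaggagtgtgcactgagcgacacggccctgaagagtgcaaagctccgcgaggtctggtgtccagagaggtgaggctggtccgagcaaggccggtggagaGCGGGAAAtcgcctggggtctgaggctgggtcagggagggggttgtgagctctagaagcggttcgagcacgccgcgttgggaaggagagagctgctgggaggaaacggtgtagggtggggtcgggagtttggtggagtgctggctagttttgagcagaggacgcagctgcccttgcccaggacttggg
Orc1: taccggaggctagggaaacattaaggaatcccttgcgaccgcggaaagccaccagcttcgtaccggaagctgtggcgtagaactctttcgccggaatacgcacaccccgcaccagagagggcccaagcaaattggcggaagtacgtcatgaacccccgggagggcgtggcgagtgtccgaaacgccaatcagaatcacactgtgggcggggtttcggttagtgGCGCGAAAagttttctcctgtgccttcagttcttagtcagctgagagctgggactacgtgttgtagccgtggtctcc
The match is present both where the stimuli differed (Mcm3, Cdc6) and where no difference was called (Orc1), and it is a description of letters, not a measured binding site.

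The genes of the replication fork, chromatin assembly and nucleotide supply were higher with E2F1 almost throughout. Of 42 members, 39 were higher with E2F1 and 1, the polymerase epsilon subunit gene Pole3, with serum. With E2F1, 41 rose and 0 fell; with serum, 9 rose and 19 fell, and 19 genes both rose with E2F1 and fell with serum. The median changes were 1.27 and -0.31. The serum median was -0.05 without replicate 2 and -0.49 without replicate 1 of the EV line at 0 h, -0.20 without replicate 1 with serum, -0.53 with equal totals, and 0.05 with the EV doxycycline libraries as the baseline, so its sign depends on the baseline. With doxycycline alone the EV line also had negative medians, -0.39 for this group, -0.29 for licensing and -0.36 for G2 and mitosis. The part of the drug in the difference of these lists was not tested. Gene by gene, the E2F1 change was also set against the EV doxycycline change. Of the 1685 genes higher with E2F1 than with serum by 2-fold, 874 were called higher with E2F1 there too. That comparison holds no serum library, and 31.3% of the 1685 had fallen with serum while the E2F1 change was not called. Pcna, the sliding clamp, went from 3794 and 3458 to 15075 and 14869 normalized counts with E2F1 and from 1939 and 3272 to 3388 and 3154 with serum. Rrm2, the limiting subunit of ribonucleotide reductase, went from 1617 and 1341 to 12582 and 10444 with E2F1, and read 785 and 1406 before and 1221 and 1562 after serum. The serum libraries of both genes overlapped the EV line at 0 h, while the induced libraries stood above all others. The serum change was called for Pcna (0.38, adjusted p = 0.0473) and not for Rrm2. The differences were 1.67 ± 0.23 for Pcna, which has pseudogenes that could share its reads, and 2.57 ± 0.35 for Rrm2. Behind Dna2, the largest differences were those of Dck, which salvages deoxycytidine (3.08), and Lig1, the ligase that seals Okazaki fragments (3.03). Lig1 rose from 3299 and 3039 to 11071 and 10304 with E2F1 and fell from 1473 and 2355 to 812 and 729 with serum.

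DNA repair and mitotic genes were also mostly higher with E2F1, through smaller rises with E2F1 and negative median serum changes. Of 33 genes of recombination, mismatch repair and checkpoints, 25 were higher with E2F1 and 1 (Mus81) with serum, at a median difference of 1.26. The median changes were 0.77 with E2F1 and -0.425 with serum. The serum median ran from -0.64 with equal totals to -0.125 after quantile normalization. Fancm, a fork-remodelling helicase (3.24), Brca1 (2.71) and Brca2 (2.39), both needed for homologous recombination, led. For Fanci the serum arm made the difference: it fell from 212 and 446 to 77 and 67 with serum, and its E2F1 change of 0.12 was not called. Ung, which removes uracil from DNA, rose with both, by 2.43 and 1.79, and its difference of 0.64 (95% interval -0.31 to 1.59) was not called. Of 29 genes of G2 and mitosis, 16 were higher with E2F1 and 0 with serum, and only 10 had risen with E2F1 at 6 h. With serum 8 fell and 0 rose. The share higher with E2F1 was 55.2%, beside 30.3% of all genes. Over all genes 28.8% rose with E2F1 and 31.0% fell with serum, so the 10 rises and 8 falls lie near those shares. Serum raised 36.5% of all genes. The median difference was 0.98, from median changes of 0.57 with E2F1 and -0.46 with serum. Without replicate 1 with serum the median difference was 0.57 and the serum median -0.01. Without replicate 2 of the EV line at 0 h they were 0.62 and -0.08. Ccnf (2.68), the proliferation marker Mki67 (2.61) and the kinetochore gene Ndc80 (2.38) had the largest differences. Ccnb1, the mitotic cyclin B, read 1771 and 1686 before and 2309 and 1891 after E2F1, and 935 and 1799 before and 1030 and 1513 after serum; its difference of 0.33 (95% interval -0.51 to 1.17) was not called.

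CDK inhibitors, which oppose the cycle, were higher with E2F1 as well. Of 5 measured CDK inhibitor genes, 4 were higher with E2F1 and 0 with serum, and 3 of them rose with E2F1 and fell with serum. Cdkn2c, which encodes p18, rose from 5456 and 5039 to 15715 and 15469 normalized counts with E2F1 and fell from 6887 and 7380 to 2456 and 2748 with serum. Cdkn1b, which encodes p27, rose from 4616 and 5098 to 8935 and 9807 and fell from 5312 and 5016 to 2022 and 2614. Cdkn2d, which encodes p19, rose by 0.94 and fell by 1.20. The groups did not overlap for Cdkn2c or Cdkn1b, whose differences were 3.03 ± 0.12 and 2.11 ± 0.14. Cdkn1a, the p21 gene, rose with both, from 3066 and 2954 to 13789 and 12293 with E2F1 and from 2128 and 2064 to 3145 and 3454 with serum, a difference of 1.46 ± 0.15.

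Death genes linked to E2F1 were also mostly higher with E2F1. Of 11 measured, 8 were higher with E2F1 and 1, Bid, with serum, and the median difference was 1.37. With E2F1 5 rose and 0 fell, and with serum 2 rose and 5 fell. The list members Trp73, Pmaip1, Hrk, Bik and Dapk2 were not among the measured genes. Bcl2l11, which encodes the BH3 protein BIM, rose from 898 and 992 to 2305 and 2275 normalized counts with E2F1 and fell from 1543 and 1328 to 198 and 166 with serum. Its difference of 4.25 ± 0.20 is built from a rise of 1.28 and a fall of 2.97, so the serum arm made the larger share. Bbc3, the PUMA gene, fell from 918 and 807 to 154 and 134 with serum, and its E2F1 change of 0.51 was not called (adjusted p = 0.0598). Apaf1, the apoptosome scaffold, differed by 0.04 (95% interval -0.28 to 0.35). Genes of p53 and its targets showed no common direction: of 18, 5 were higher with E2F1 and 6 with serum, or 27.8% and 33.3%, near the 30.3% and 27.6% of all genes. Tigar, which lowers glycolytic flux, rose from 98 and 91 to 1244 and 994 with E2F1 and from 105 and 101 to 317 and 292 with serum. Trp53inp1 fell with serum by 2.66, Aen rose with serum by 2.03, and the E2F1 changes of both were not called. Mdm2, the p53 ubiquitin ligase, differed by 0.16 (95% interval -0.11 to 0.42).

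**Figure D3:**
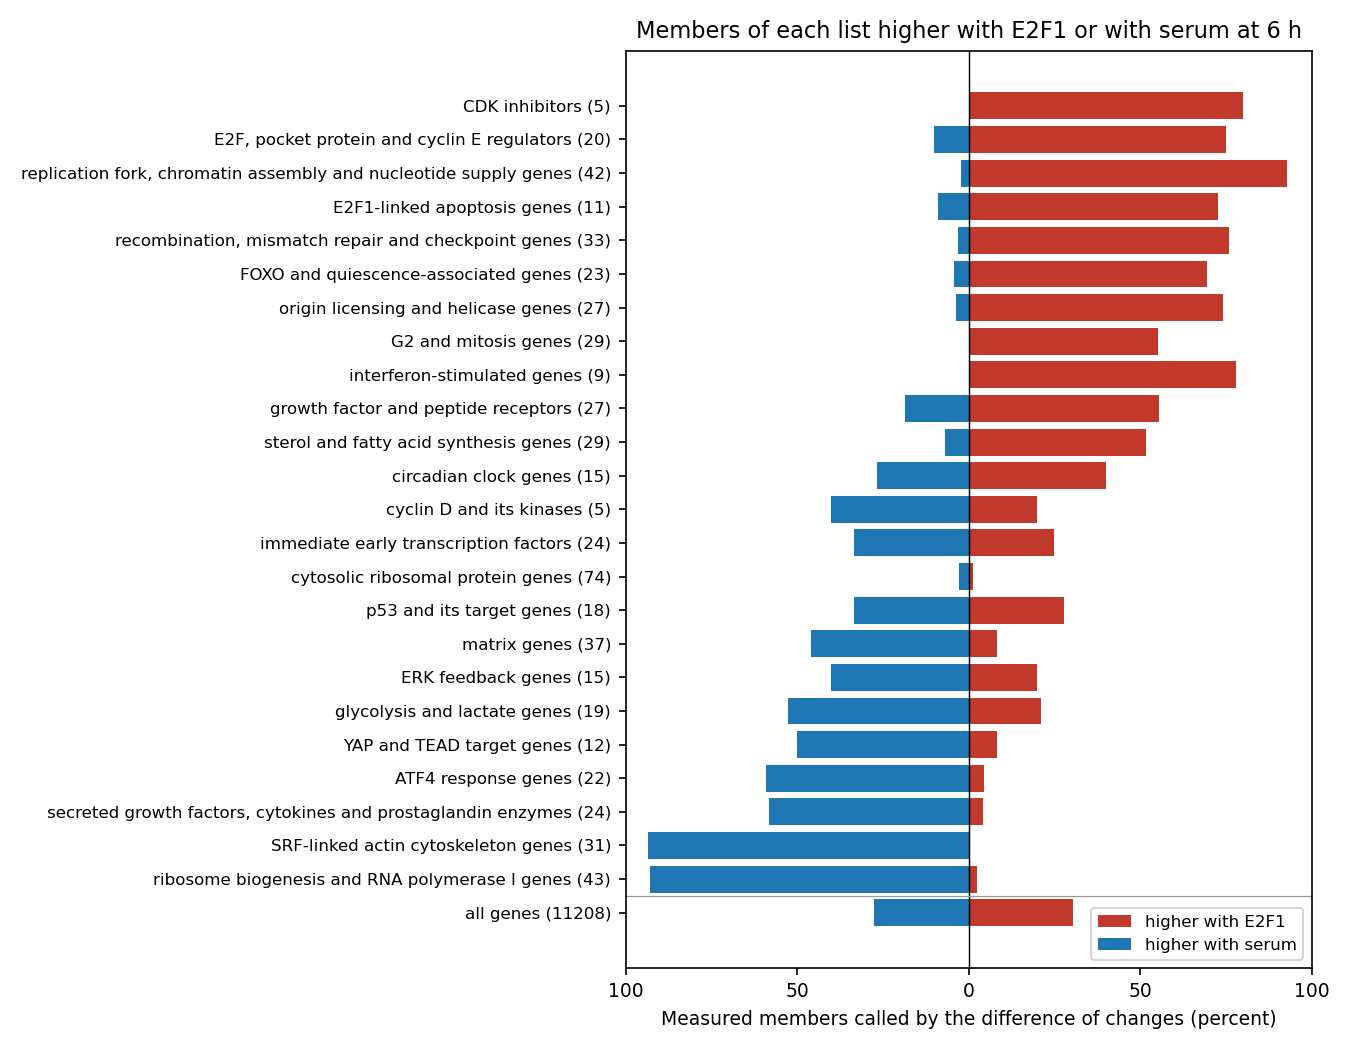
Percent of the measured members of each of 24 gene lists (number in brackets) and of all genes that were higher with E2F1 (red, right) or with serum (blue, left) by the difference of changes. Replication fork genes reach 92.9% on the E2F1 side, actin and ribosome biogenesis genes 93.5% and 93.0% on the serum side, against 30.3% and 27.6% of all genes.

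On the serum side, immediate early genes had no common direction at 6 h. Of 24 measured, 6 were higher with E2F1 and 8 with serum, or 25.0% and 33.3%, near the shares of all genes. Myc went from 1723 and 1865 to 4745 and 3449 normalized counts with serum, and read 2399 and 2434 before and 2791 and 2166 after E2F1. Fosl1, a late member of the FOS family, rose from 120 and 222 to 1873 and 1633 with serum and read 318 and 286 before and 423 and 263 after E2F1. The serum libraries lay above all others for both genes, and the differences were -1.15 ± 0.21 and -3.27 ± 0.41. Egr1 fell with serum at this time, from 3313 and 3708 to 1183 and 752, and rose with E2F1 from 4508 and 6762 to 10500 and 8304, a difference of 2.65 ± 0.32. With doxycycline alone the EV line had 2242 and 1579, also below its 0 h level. Fos read 128 and 70 before and 312 and 247 after E2F1 and 145 and 91 before and 139 and 60 after serum. Its difference of 1.87 ± 0.63 (adjusted p = 0.0167) was not called after quantile normalization (1.55), with the EV doxycycline libraries as the serum baseline (1.36), or without replicate 2 of the E2F1 line at 0 h (1.44), replicate 1 of the induced E2F1 line (1.70), replicate 1 of the EV line at 0 h (1.54) or replicate 2 with serum (1.27). Nr4a3, an orphan nuclear receptor, rose with both, from 17 and 4 to 398 and 260 with E2F1 and from 19 and 12 to 39 and 80 with serum. Genes of ERK feedback, which dampen the pathway that serum engages, had 6 of 15 higher with serum and 3 with E2F1. Among 15 genes these counts lie close to the 27.6% and 30.3% of all genes. The phosphatase genes Dusp5, Dusp6 and Dusp4 had the largest differences, -2.67, -2.65 and -2.59. Dusp6, which acts on ERK, went from 1585 and 1912 to 10081 and 7472 with serum and read 2096 and 2271 before and 2046 and 1460 after E2F1. The Dusp4 difference was not called without replicate 1 of the E2F1 line at 0 h.

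Secreted growth factors, cytokines and prostaglandin enzymes were raised by serum far more than by E2F1. Of 24 measured, 14 were higher with serum and 1 (Igf1) with E2F1, with a median serum change of 1.88 and a median E2F1 change of -0.25. The serum median was 1.15 without replicate 1 with serum and 0.96 with the EV doxycycline libraries as the baseline, and the E2F1 median ran from -0.47 without replicate 1 of the induced E2F1 line to -0.11 without replicate 1 of the E2F1 line at 0 h. Fgf2, basic fibroblast growth factor, rose from 164 and 74 to 3775 and 4521 normalized counts with serum and read 150 and 128 before and 100 and 116 after E2F1. Inhba, a subunit of activin, rose from 678 and 723 to 10089 and 10955 with serum and fell from 1182 and 1093 to 727 and 501 with E2F1. Ereg, an EGF receptor ligand, rose from 231 and 417 to 6438 and 3019 with serum. The serum libraries of all 3 genes stood above every other group, and the differences were -5.58, -4.82 and -3.73. Some ligand genes rose with both: Pdgfa rose by 1.87 with E2F1 and 2.38 with serum, Hbegf by 1.59 and 2.92, and Lif by 2.15 and 2.94. The Lif difference of -0.79 (95% interval -2.55 to 0.97) was not called.

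Receptor genes leaned the other way. Of 27 measured, 15 were higher with E2F1 and 5 with serum, at a median difference of 0.45. These are 55.6% and 18.5%, beside 30.3% and 27.6% of all genes. With serum 15 fell and 7 rose, beside 31.0% and 36.5% of all genes. With E2F1 8 fell and 8 rose, near the 22.9% and 28.8% of all genes. The median changes were nearly equal, -0.23 with serum and -0.21 with E2F1. Pdgfra, a PDGF receptor that marks fibroblasts, fell from 71387 and 57591 to 8469 and 5245 normalized counts with serum and from 46438 and 50638 to 26870 and 33178 with E2F1. Both stimuli lowered it, serum more, by 3.27 against 0.70. Ednra, an endothelin receptor, fell by 3.57 with serum, and its E2F1 change of -1.18 was not called. Pdgfrb fell with both, by 0.96 and 0.91, and its difference was -0.05 (95% interval -0.36 to 0.26).

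Actin cytoskeleton genes linked to SRF rose with serum almost throughout. Of 31 measured, 29 were higher with serum and 0 with E2F1. With serum 30 rose and 0 fell, whereas with E2F1 7 rose and 8 fell. The E2F1 counts lie near the shares of all genes, of which E2F1 raised 28.8% and lowered 22.9%. The median serum change was 1.52, and the median E2F1 change of -0.02 ran from -0.14 to 0.05 over the alternatives (the latter without replicate 2 of the E2F1 line at 0 h). Acta2, smooth muscle actin, rose from 6729 and 8028 to 66721 and 65475 normalized counts with serum and read 11752 and 13298 before and 11306 and 12501 after E2F1. Fhl1, a LIM-domain protein of the cytoskeleton, rose from 71 and 60 to 2069 and 1866 with serum and read 31 and 43 before and 43 and 60 after E2F1. Srf itself rose from 2675 and 4520 to 7939 and 7803 with serum, and its E2F1 change of -0.26 was not called. The serum libraries lay above all other groups for all 3 genes. Vcl, which encodes the focal adhesion protein vinculin, rose by 1.63 with serum and fell by 0.25 with E2F1. Zyx (-0.28) and Fhl2 (-0.17) were the members whose difference was not called. Of 12 measured YAP target genes, 6 were higher with serum and 1 with E2F1. Ccn2 and Ccn1, secreted matricellular proteins, led them: Ccn2 went from 539 and 1298 to 22091 and 37168 with serum and read 886 and 1138 before and 1117 and 691 after E2F1. The Ccn1 difference was -3.71 ± 0.45.

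SRF binds the CArG box, CC followed by 6 bases that are A or T and then GG, and promoters of 2 list members are printed to show it. A match stood in 6 of the 22 SRF-linked genes with a single promoter in the table (Actg1, Cnn2, Lima1, Myl9, Srf and Vcl), or 27.3%, against 1.28% of the 6851 measured genes. Srf and Vcl were chosen for printing after the matches were seen, since the serum-side genes that the naming rule gave, Tnnt2 and Fibcd1, hold none in this window. Capitals mark the CArG boxes. The Srf promoter (chr17:46556113-46556412, minus strand) holds 2, starting 82 and 62 bases before the start, and the Vcl promoter (chr14:20929148-20929447, plus strand) holds 1, starting 227 bases before it.
Srf: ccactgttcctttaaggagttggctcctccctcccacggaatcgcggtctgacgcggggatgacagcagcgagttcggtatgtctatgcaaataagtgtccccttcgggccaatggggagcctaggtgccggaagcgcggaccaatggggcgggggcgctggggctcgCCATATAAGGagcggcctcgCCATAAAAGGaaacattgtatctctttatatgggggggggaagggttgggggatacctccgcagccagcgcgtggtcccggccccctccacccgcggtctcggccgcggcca
Vcl: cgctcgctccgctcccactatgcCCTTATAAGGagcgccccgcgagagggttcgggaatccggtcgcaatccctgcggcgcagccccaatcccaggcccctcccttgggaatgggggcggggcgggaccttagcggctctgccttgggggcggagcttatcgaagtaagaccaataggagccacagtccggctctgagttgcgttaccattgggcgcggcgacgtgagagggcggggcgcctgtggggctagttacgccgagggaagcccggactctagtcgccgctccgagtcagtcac
Neither promoter holds one of the E2F letters searched.

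Matrix genes were mixed. Of 37 measured, 17 were higher with serum and 3 with E2F1, or 45.9% and 8.11%, beside 27.6% and 30.3% of all genes. Tnc, tenascin C, a matrix protein of wounds, rose from 12318 and 15002 to 171859 and 146569 normalized counts with serum and read 14162 and 14057 before and 11899 and 11858 after E2F1. Col3a1, a fibrillar collagen, fell from 193386 and 186691 to 47215 and 35990 with serum and by 0.47 with E2F1, and was higher with E2F1 by 1.73 ± 0.27. Fn1, fibronectin, differed by -0.11 and was not called.

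Ribosome biogenesis genes make and process ribosomal RNA, and they were raised by serum with few exceptions. Of 43 members, all measured, 40 were higher with serum and 1 with E2F1. With serum 42 rose and 1 (Polr1c) fell, whereas with E2F1 13 rose and 12 fell. The E2F1 counts lie near the shares of all genes, of which E2F1 raised 28.8% and lowered 22.9%. The median serum change was 1.54, and the median E2F1 change of -0.02 ran from -0.20 to 0.08 over the alternatives (the latter without replicate 2 of the induced E2F1 line). Rrp12, an export factor for ribosomal subunits, rose from 856 and 813 to 5019 and 5108 normalized counts with serum and read 1367 and 1132 before and 1164 and 962 after E2F1. Nop2, a ribosomal RNA methyltransferase, rose from 2035 and 1710 to 9421 and 7781 with serum and read 3195 and 2334 before and 2961 and 2568 after E2F1. The serum libraries stood above all others for both, and the differences were -2.83 ± 0.19 and -2.18 ± 0.19. The exception was Ubtf, the activator of RNA polymerase I: it rose from 7258 and 7573 to 24402 and 23104 with E2F1 and from 6913 and 6643 to 8645 and 10911 with serum, and was higher with E2F1 by 1.16 ± 0.12. The structural proteins of the cytosolic ribosome did not follow. Of 74 measured, 2 were higher with serum and 1 with E2F1, and the median changes were -0.14 with E2F1 and -0.19 with serum (-0.47 after quantile normalization, -0.10 without replicate 2 and -0.29 without replicate 1 of the EV line at 0 h).

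The E-box CACGTG, which MYC and related factors bind, was among the motifs sought in this list and others. It stood in 10 of 35 ribosome biogenesis genes with a single promoter, or 28.6%, against 10.7% of all 6851. An E2F match stood in 4 of the 35, or 11.4%, against 4.82%. The E-box share was 18.8% for replication fork genes, 9.09% for actin genes, 4.55% for repair genes and 4.35% for G2 and mitosis genes. The other lists searched held no E-box. The Nop2 promoter (chr6:125131633-125131932, plus strand), chosen after the matches were seen, holds 1 that begins 60 bases before the start and is shown in capitals.
Nop2: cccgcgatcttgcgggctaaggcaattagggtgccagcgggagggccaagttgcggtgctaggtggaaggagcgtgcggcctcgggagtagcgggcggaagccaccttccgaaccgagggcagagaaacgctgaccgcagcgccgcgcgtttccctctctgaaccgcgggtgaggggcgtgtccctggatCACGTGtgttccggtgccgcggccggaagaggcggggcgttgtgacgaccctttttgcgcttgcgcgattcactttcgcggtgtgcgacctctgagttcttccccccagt

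Over whole classes of genes the same motifs were unevenly spread. An E2F match stood in 7.06% of promoters of genes higher with E2F1 by 2-fold and in 2.56% of those higher with serum. Within the former it stood in 9.32% of genes that had risen with E2F1 and in 3.93% of those that had not. A CArG box stood in 0.87% of the genes higher with E2F1, in 3.23% of those higher with serum and in 4.95% of those that fell with E2F1 and rose with serum. For the E-box the shares were 8.03%, 15.2% and 16.8%. Base composition moved with these classes, and its part in the shares was not tested: the median GC content was 66.7% for the genes raised and higher with E2F1, 60.3% for those higher with serum and 61.7% for all, with a median of 29, 20 and 22 CpG dinucleotides per promoter.

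**Figure D4:**
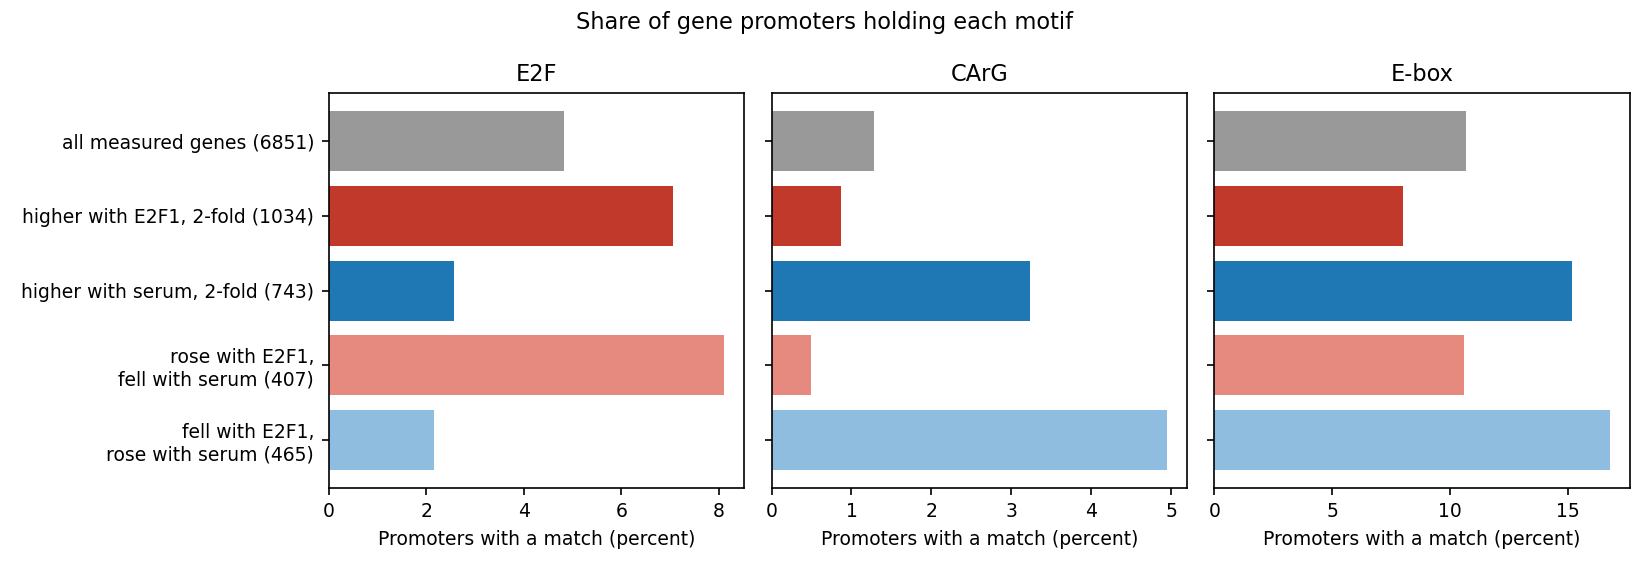
Percent of genes with at least 1 match to E2F letters, CArG box or E-box in the 300 bases around the start, for all measured genes and 4 classes (number of genes with a single promoter in brackets). Among the sets shown, the E2F share is highest, at 8.11%, in genes that rose with E2F1 and fell with serum. It was 7.8% in genes that rose with E2F1 with serum not called and 6.47% in those that rose with both (neither shown). The CArG and E-box shares are highest, at 4.95% and 16.8%, in genes that fell with E2F1 and rose with serum.

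Metabolic genes separated by pathway, where the shares of all genes were 27.6% higher with serum and 30.3% higher with E2F1. Of 22 ATF4 response genes, which supply amino acids and one-carbon units, 13 were higher with serum and 1 with E2F1. Their median difference was -0.74, and -0.43 with the EV doxycycline libraries as the serum baseline. It was -1.04 without replicate 1 and -0.415 without replicate 2 with serum. With doxycycline alone their median change in the EV line was 0.35. Asns, asparagine synthetase, rose from 1671 and 1577 to 6302 and 9901 normalized counts with serum and read 2374 and 2003 before and 2516 and 1884 after E2F1. Of 19 genes of glycolysis, 10 were higher with serum and 4 with E2F1. Hk2, a hexokinase, rose with both, by 1.11 with E2F1 and 2.97 with serum, while the glucose transporter gene Slc2a1 rose by 1.32 with serum and fell by 0.35 with E2F1. Sterol and fatty acid synthesis went the other way: of 29, 15 were higher with E2F1 and 2 with serum, and 22 fell with serum and 9 with E2F1. Dhcr7, the last enzyme of cholesterol synthesis, fell from 2022 and 2043 to 735 and 519 with serum and from 1915 and 1692 to 1431 and 1392 with E2F1. The falls were 1.72 and 0.35. Tmem97, a sterol-regulated transmembrane protein, went against its list and rose by 1.51 with serum.

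Genes of quiescence were lowered by both stimuli, and more by serum. Of 23 FOXO and quiescence-associated genes, 20 fell with serum, 14 fell with E2F1 and 13 fell with both, with median changes of -1.29 and -0.46. By the difference 16 were higher with E2F1 and 1, Cited2, with serum. Ccng2, a cyclin of arrested cells, fell from 2442 and 2159 to 190 and 112 normalized counts with serum and from 1896 and 1754 to 617 and 768 with E2F1. Gas1, a growth arrest gene, fell by 2.59 with serum and 0.59 with E2F1. Against this pattern, Mxi1, a repressor that opposes MYC, rose from 1463 and 1354 to 3858 and 3565 with E2F1 and fell from 1943 and 1853 to 309 and 324 with serum. The groups did not overlap and the difference was 3.98 ± 0.21. Foxo1 likewise rose by 0.93 and fell by 0.94. Of 15 clock genes, 6 were higher with E2F1 and 4 with serum, or 40.0% and 26.7%, close to the 30.3% and 27.6% of all genes. The output factors Hlf and Dbp and the receptor gene Rora fell by 5.37, 4.97 and 3.87 with serum, and none of the 3 had an E2F1 change that was called. Of 9 measured interferon-stimulated genes, 7 were higher with E2F1, 8 fell with serum and 0 rose with E2F1. Over all genes the shares were 30.3%, 31.0% and 28.8%.

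**Figure D5:**
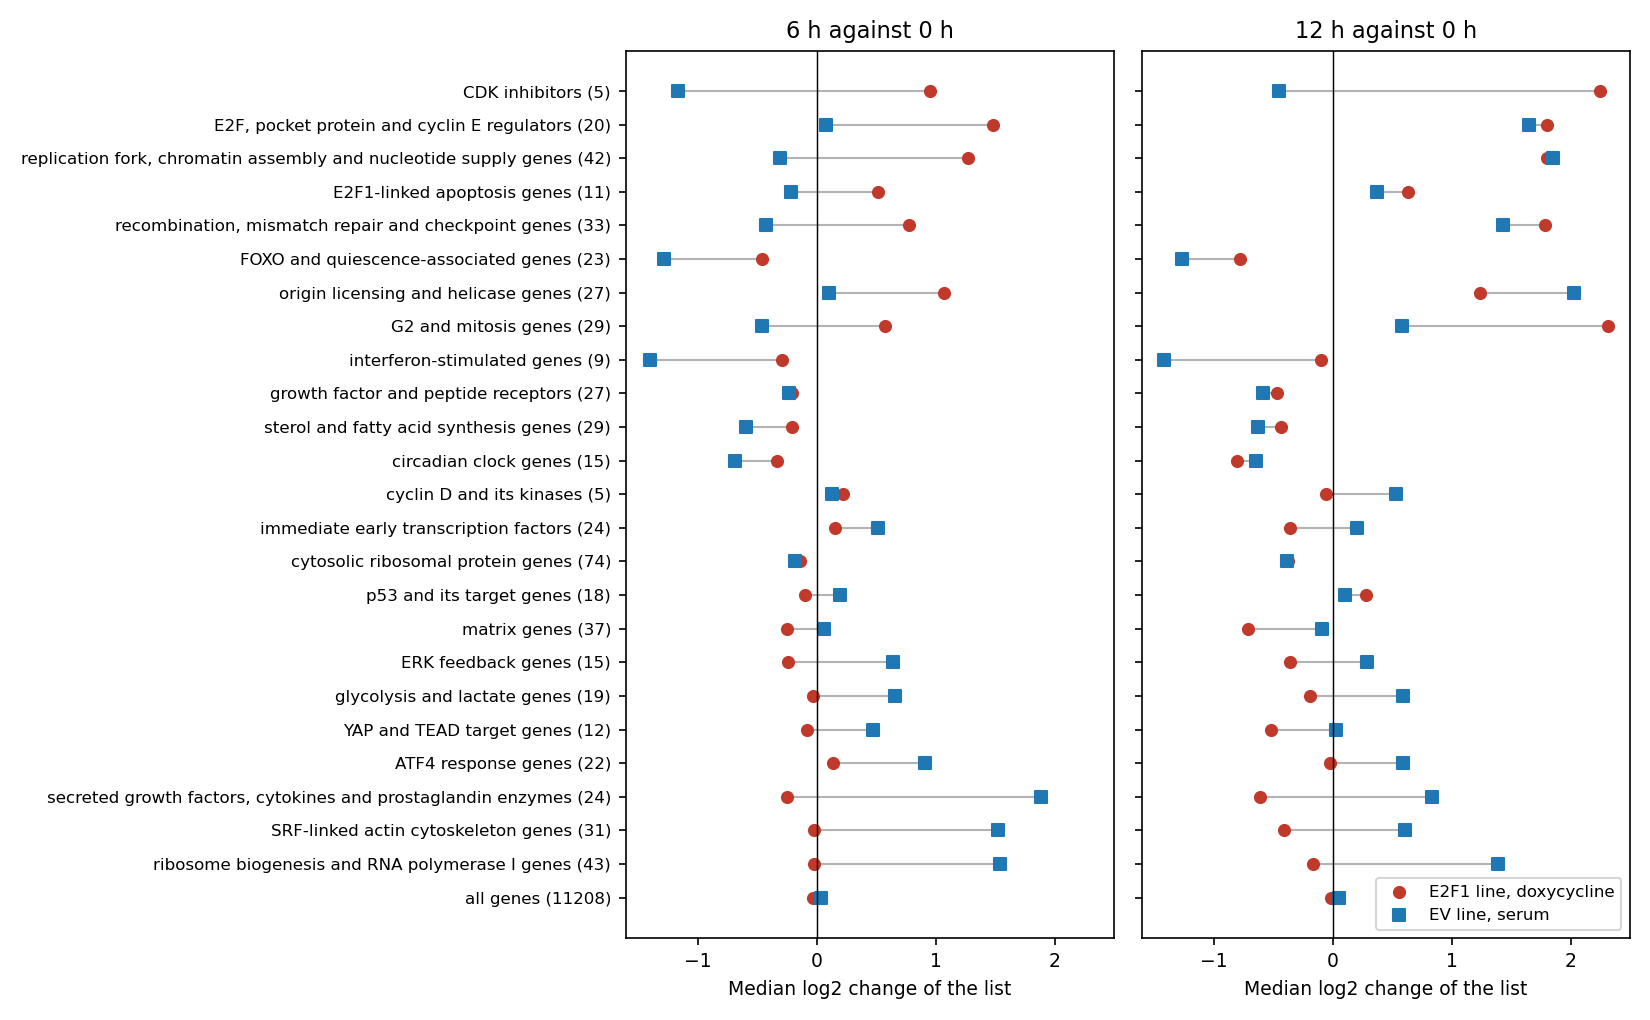
Median log2 change of each gene list with E2F1 (red circles) and serum (blue squares) at 6 h (left) and 12 h (right) against 0 h, ordered by the median difference at 6 h. At 6 h the replication fork genes are apart (1.27 and -0.31, or 0.05 for serum with the EV doxycycline libraries as the baseline) and at 12 h they are close (1.80 and 1.85), while ribosome biogenesis genes are apart at both times.

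In opposite directions, 683 genes (6.09%) rose with E2F1 and fell with serum. Another 725 (6.47%) fell with E2F1 and rose with serum (475 without replicate 1 of the E2F1 line at 0 h). Over all genes E2F1 raised 28.8% and lowered 22.9%, and serum raised 36.5% and lowered 31.0%. Whether the opposite classes exceed what those shares alone would give was not tested. By at least 2-fold in both arms the opposite classes held 89 and 15 genes. By the smaller of both changes Amigo1, an adhesion protein of neurons, came first: it rose from 204 and 137 to 1049 and 900 normalized counts with E2F1 and fell from 227 and 246 to 48 and 30 with serum. Psmb9, a subunit of the immunoproteasome, rose from 128 and 158 to 740 and 812 and fell from 76 and 58 to 23 and 12. Tbc1d8 rose by 2.04 and fell by 1.83. In the reverse class, Odaph fell by 1.58 and rose by 2.02, the long non-coding RNA Lncpint fell by 1.31 and rose by 1.92, and Stbd1, a glycogen-binding protein, fell by 1.48 and rose by 1.29.

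A shared response was also present. Both stimuli raised 1545 genes, of which 355 were higher with E2F1 and 377 with serum, and both lowered 1111, of which 417 were higher with E2F1 and 21 with serum. These counts depend on the scaling and on single libraries: with equal totals 937 genes rose and 1964 fell with both, after quantile normalization 1683 fell with both, and shared falls were 661 without replicate 2 of the E2F1 line at 0 h and 675 without replicate 1 of the induced E2F1 line. Nxph3, a neurexin ligand, rose from 21 and 20 to 615 and 621 normalized counts with E2F1 and from 28 and 12 to 523 and 277 with serum. Dlk2, a transmembrane relative of the Notch ligands, rose from 58 and 39 to 278 and 258 and from 88 and 123 to 548 and 720. Their differences were 0.55 (95% interval -0.94 to 2.04) and -0.11 (-0.95 to 0.72), and neither was called. Wnt11 read 10 and 0 before and 46 and 22 after E2F1 and 32 and 29 before and 258 and 307 after serum; its difference of 0.14 has an interval of -2.14 to 2.43, too wide to compare the stimuli. Grhl1, an epithelial transcription factor, rose with both but was higher with E2F1 by 3.25 ± 0.96: it went from 18 and 14 to 1573 and 1270 with E2F1 and from 19 and 7 to 78 and 155 with serum. Among genes lowered by both, the urea transporter gene Slc14a1 fell from 1073 and 1368 to 352 and 432 and from 1571 and 2274 to 576 and 632, a difference of 0.01 (95% interval -0.81 to 0.84). Ppp1r3b, which targets a phosphatase to glycogen, fell by 1.64 and 2.67, and Aox1, an aldehyde oxidase, by 1.47 and 2.42, and neither difference was called.

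Values at 12 h, fitted in the same model and against the same 0 h libraries, place the 6 h contrast in time. The median serum change of replication fork genes was -0.31 at 6 h (0.05 with the EV doxycycline libraries as the baseline) and 1.85 at 12 h, while the median E2F1 change was 1.27 and 1.80. For licensing genes the serum median was 0.10 at 6 h (-0.21 to 0.43 over the alternatives) and 2.03 at 12 h, and the E2F1 median was 1.07 and 1.24. The median difference of the licensing genes was thus 1.00 at 6 h (0.62 without replicate 2 of the EV line at 0 h) and -0.78 at 12 h. Ribosome biogenesis genes kept a median serum change of 1.39 and an E2F1 median of -0.17 at 12 h. G2 and mitosis genes reached a median of 2.31 with E2F1 and 0.58 with serum at 12 h.

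The authors' deposited tables of the 6 h comparisons list genes by a stricter rule, at an absolute log2 change of at least 2. For E2F1 the authors' deposited table lists 264 genes, 252 higher and 12 lower, and for serum it lists 795, 298 higher and 497 lower. Of these, 192 and 473 were in the normalized table, where 192 and 472 were called here in the same direction. The lists of the authors' deposited tables share 25 genes, which is 9.47% of the E2F1 list and 3.14% of the serum list. Of the 25, 20 were higher with both, 1 lower with both, 3 higher with E2F1 and lower with serum, and 1 the reverse.

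Counting could mix some genes with others. Whether strand was used is not given in the sources used here, and in the annotation Rb1 overlaps Rcbtb2 and Lpar6, Ccne2 overlaps Ints8, Ccnd3 overlaps Bysl, Lig1 overlaps Zswim9, Psmb9 overlaps Tap1, Tbc1d8 overlaps Rpl31, Fgf2 overlaps Nudt6, Dlk2 overlaps Abcc10, Vcl overlaps Ap3m1 and Dbp overlaps Sphk2, so the values of these genes are uncertain where reads are shared.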

How the data were processed

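Polyadenylated RNA of NIH/3T3 lines was sequenced in 22 libraries, 11 groups of 2. The deposited table holds the authors' normalized counts, rounded to whole numbers and handled here as a score, since they are not raw reads; per the submitters' processing notes, mm10, FastQC, Trimmomatic, HISAT2, featureCounts and DESeq2 were used, with versions and settings not given in the sources used here. The authors' deposited tables of the 6 h comparisons give log2 fold changes and adjusted p-values.

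After adding 1 and taking log2, limma 3.58.1 (R 4.3.3) fitted 11 group means over all 22 libraries with a mean-variance trend (11 residual degrees of freedom). Calls use a Benjamini-Hochberg adjusted p under 0.05 over 11208 genes; the filter (10 or more in at least 2 libraries) removed 0 genes. Intervals are 95% and unadjusted. The scripts were tested on simulated data. Tables and figures used Python 3.11.15, pandas 2.3.3, numpy 2.4.6 and matplotlib 3.10.9. Gene positions are from GENCODE M21 on GRCm38, where 10977 identifiers had the same version; promoters are from RefSeq, GRCm38.p6, where 8609 genes matched.

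The genes and lists were chosen with earlier results of these data known. Genes were named by a rule: the 6 largest differences in each direction with a group mean of at least 100 and no overlap of library-by-library changes, the 4 largest in each class of shared or opposite changes, fixed cell cycle and immediate early genes, and up to 3 members per list and direction. E2f7, E2f8, Tfdp2, Rbl2, Cdk4, Cdk6, Orc1, Orc2, Fanci, Ung, Ccnb1, Cdkn1a, Apaf1, Mdm2, Pdgfa, Hbegf, Lif, Pdgfrb, Srf, Vcl, Zyx, Fhl2, Fn1, Polr1c, Nop2, Foxo1 and Ddx3y were added after their values were seen. Some genes that meet the rule are not reported here. Alternatives were another pseudocount (8), a mean of at least 500, other scalings, a replicate block, fewer groups in the fit, other baselines and each library left out.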

Additional observations from a re-analysis of the deposited data

Results flagged for a closer look

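The difference between the stimuli depended on time for 3 flagged cell cycle genes, by limma's test of the difference at 12 h against 6 h. How many of all genes passed that test is not reported here, so the shift is not shown to be particular to these 3. The median difference of the licensing genes also moved, from 1.00 at 6 h to -0.78 at 12 h. For E2f1 the difference was 1.78 at 6 h and -0.70 at 12 h, a shift of -2.48 (adjusted p = 2.54e-08). For Cdc6 it was 1.11 and -1.77, a shift of -2.88 (adjusted p = 3.84e-06). For Mcm3 it was 1.29 and -1.44, a shift of -2.73 (adjusted p = 6.13e-07). In all 3 the serum change at 12 h exceeded the E2F1 change: 1.43 against 0.73 for E2f1, 3.33 against 1.56 for Cdc6 and 2.68 against 1.24 for Mcm3.

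A signal was also present outside the normalized table. In the authors' deposited tables, 4 genes that are in both 6 h lists have no row among the normalized values. Usp29 is listed in the authors' deposited tables at a log2 change of 2.13 with E2F1 and -3.51 with serum. The predicted genes Gm7389 and Gm43150 are listed in the authors' deposited tables at 2.10 and 2.30, and at -2.24 and -3.48.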

How the results depend on the processing

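No gene called in the difference was called in the other direction under another pseudocount, filter, scaling, block or left-out library, and 18 were when the 6 h groups were compared directly, without their 0 h levels. Of 2681 values of 136 named genes under the alternatives, 2591 kept direction and side of the threshold, 83 lost the call, 4 gained one and 3 changed sign. Those 3 came from the direct comparison of the 6 h groups: Fas 0.022, Lifr 0.080 and Wnt11 -3.10. Shared falls depended most on the scaling, with 1683 genes after quantile normalization and 1964 with equal totals, where shared rises were 937. At a 2-fold minimum the counts were 1685 and 1182 for the difference, 968 higher and 147 lower with E2F1, 1197 and 1311 with serum, 158 shared rises, 58 shared falls, 89 risen with E2F1 and fallen with serum, and 15 the reverse.

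Leaving out each library in turn gave 661 to 1116 shared falls and 475 to 708 genes fallen with E2F1 and risen with serum. The lowest were 661 without replicate 2 and 475 without replicate 1 of the E2F1 line at 0 h, and without replicate 1 of the induced E2F1 line shared falls were 675. The other ranges were 553 to 684 for the opposite class, 1229 to 1494 for shared rises, 3059 to 3243 and 2757 to 2925 for the difference, 2627 to 3302 and 1714 to 2716 for E2F1, and 3674 to 4078 and 3074 to 3452 for serum. Without all 2 h libraries, a setting chosen after seeing the data, 3295 and 2986 genes were called in the difference.

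Replicate numbers are shared by the groups, but deviations of same-numbered libraries correlated at 0.397 and 0.160 within the lines and at -0.084 to 0.068 otherwise, so the numbers were not taken as pairs. With the replicate block 3463 genes were higher with E2F1 and 3134 with serum; with a block within each line, chosen after seeing the data, 3440 and 3111. Depth is known only from normalized totals, and genes with a mean under 99.6 were not analysed here.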
